A study of Mus musculus with 6 samples.

Results

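The genes described here are 10 genes that p53 switches on or that feed back on it: *Mdm2*, *Mdm4*, *Ccng1*, *Phlda3*, *Trp53inp1*, *Perp*, *Zmat3*, *Sesn1*, *Sesn2* and *Gdf15*. They were listed by symbol and looked up in the annotation of the array, where 9 of the 10 were found, each with 1 probe set, among 19505 named genes. *Gdf15*, a secreted stress cytokine, was not analysed here. RNA came from luminal cells of the mammary gland, taken from female FVB/NJ mice with the Sox9-GFP and C3(1)/Tag transgenes at about 3 months and gated by FACS on GFP as Sox9-GFP high or Sox9-GFP low, with 3 arrays per sort. Both sorts carried both transgenes. C3(1)/Tag is an SV40 large T antigen transgene under the regulatory sequence of a rat prostate gene, and Sox9-GFP is a reporter transgene whose fluorescence set the gates. No mice without the T antigen transgene were measured, so the values compare 2 sorts of cells from mice that carry it. The level of T antigen in each sort was not analysed here. The paper reports that T antigen in this model was expressed mainly in luminal cells without the estrogen receptor. Whether the sorts differed in T antigen was not tested. The paper's legend gives 3 animals for this comparison and does not say whether each gave both sorts. In the labels each sort has arrays 1 to 3 with no animal named. P-values therefore measure the spread between these arrays.

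p53 is a transcription factor that is held at a low level by MDM2, which tags it for destruction, and that turns on *Mdm2* itself, which closes a negative feedback loop. Stress signals release p53, and its target genes then stop the cell cycle, start apoptosis or adjust metabolism. SV40 large T antigen binds p53 and blocks its action on target genes, and it binds the retinoblastoma proteins as well. Many p53 targets also answer to other regulators, such as p63 in stratified epithelia or ATF4 under amino acid shortage.

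The arrays behaved alike within a sort, with Pearson's r across probe sets of 0.992 to 0.994 within and 0.979 to 0.988 between sorts, and their medians lay between 5.15 and 5.21 on the log2 scale. *Sox9* was 2.02-fold higher in Sox9-GFP high cells (adjusted p = 0.0360 from limma). The luminal keratins *Krt8* and *Krt18* had means of 17.09 and 17.59 in Sox9-GFP high and 17.19 and 17.50 in Sox9-GFP low cells. None of 6 immune and 6 endothelial markers passed in limma (0 and 0 at an unadjusted p under 0.05, also by the methods' t-test), and all 6 immune markers had means under the array medians in each sort. Over all 22206 probe sets limma called 7.20%, 4.0% (888) as higher and 3.20% (711) as lower in Sox9-GFP high cells. A fit with a replicate block, the array number as a term, called 11.3% (6.32% higher and 4.99% lower).

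The 9 measured genes did not move together. *Phlda3* and *Perp* rose, *Trp53inp1* fell, and *Ccng1* had lower values that passed only with the replicate block. *Mdm2*, *Mdm4*, *Zmat3*, *Sesn1* and *Sesn2* did not pass. In all, 2 of the 9 were higher and 1 was lower in Sox9-GFP high cells, beside 4.0% and 3.20% of all probe sets, and with the replicate block 2 were higher and 2 lower, beside 6.32% and 4.99%. Differences are given throughout as the Sox9-GFP high mean less the low mean, in log2 units. Their median over the 9 genes was 0.01, as it was over all probe sets. For 4 of the 9 the arrays of the sorts did not overlap, against 25.5% of all probe sets. An exact permutation test, two-sided, gave p = 0.10 for each of these 4, the smallest that 3 arrays against 3 allow.

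**Figure D1:**
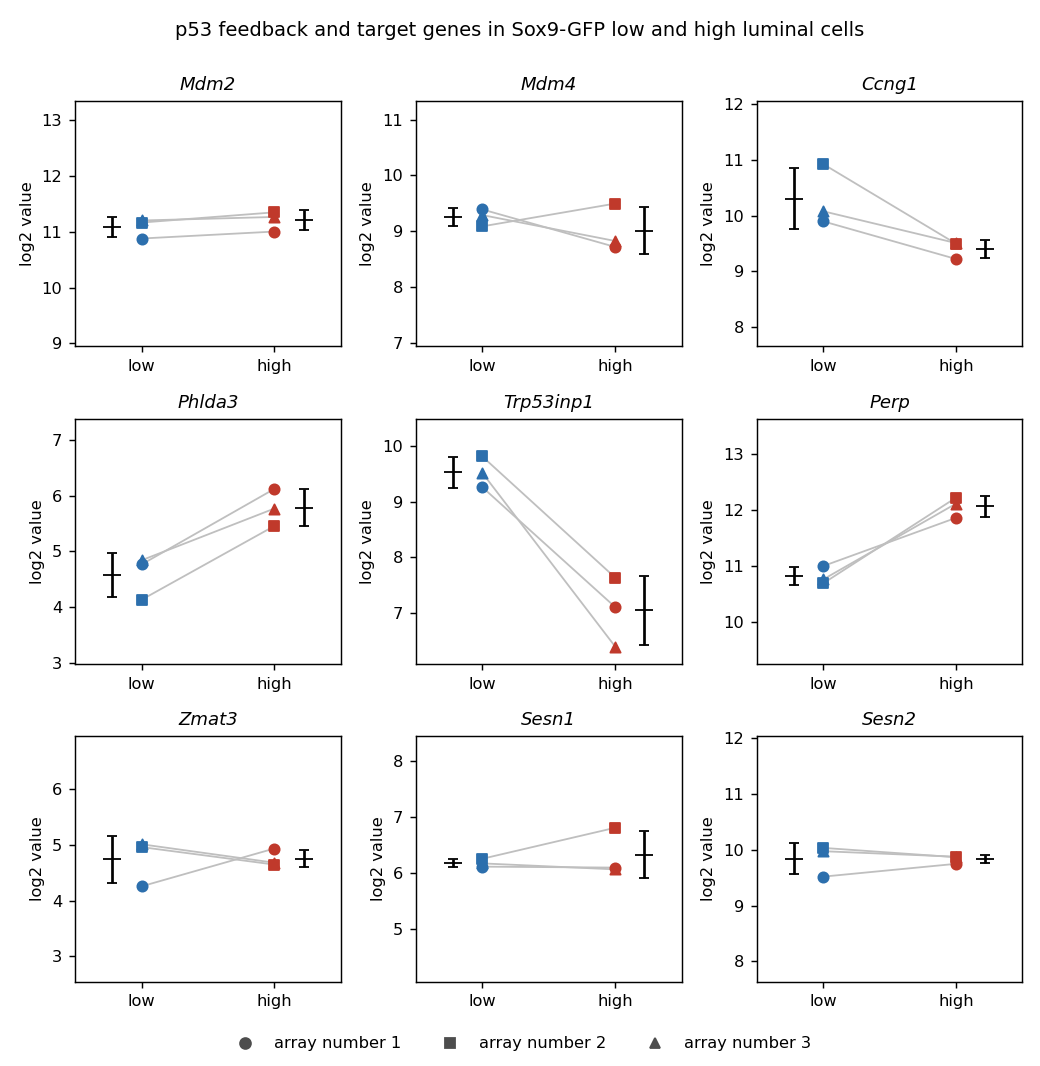
Log2 value of each measured gene in the 3 Sox9-GFP low (blue) and 3 Sox9-GFP high (red) arrays; markers give the array number, grey lines join equal numbers, and bars show mean ± SD (n = 3), with all panels spanning the same log2 range. *Phlda3* and *Perp* climb and *Trp53inp1* and *Ccng1* drop on all 3 lines, while the sorts overlap in the other 5 genes.

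*Mdm2*, the E3 ubiquitin ligase that degrades p53, had nearly equal values in the sorts. The Sox9-GFP low arrays 1, 2 and 3 had log2 values of 10.88, 11.17 and 11.20, and the Sox9-GFP high arrays 11.01, 11.35 and 11.27. The high array lay above the low array of its number in all 3 cases, by 0.12, 0.18 and 0.06, but the sorts overlapped. The mean difference was 0.12 on the log2 scale (standard error 0.18, 95% interval -0.28 to 0.53, adjusted p = 0.787 from limma).

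*Mdm4* encodes the relative of MDM2 that covers the activation domain of p53. It had log2 values of 9.39, 9.08 and 9.29 in the Sox9-GFP low arrays and 8.72, 9.49 and 8.82 in the Sox9-GFP high arrays. Array 2 of the Sox9-GFP high cells was the highest of all 6 and the other Sox9-GFP high arrays were the lowest. The difference was -0.24 (95% interval -0.75 to 0.26, adjusted p = 0.636 from limma).

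*Ccng1* encodes cyclin G1, which brings a phosphatase to MDM2 and so also acts on the loop. Its log2 values were 9.90, 10.92 and 10.08 in Sox9-GFP low and 9.22, 9.50 and 9.51 in Sox9-GFP high cells. All Sox9-GFP high arrays lay below all Sox9-GFP low arrays, and Sox9-GFP low array 2 stood highest. The difference was -0.89, a 1.86-fold lower level (standard error 0.26, 95% interval -1.47 to -0.31), with an adjusted p of 0.0731 from limma without a block and 0.0253 with the array number as a block. Leaving out Sox9-GFP low replicate 1 also brought it past the threshold (adjusted p = 0.0496), and without Sox9-GFP low replicate 2 the difference was -0.58.

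The promoter stretches that held a match to a p53 site are shown here. Windows of 250 bases before to 50 after a start site were taken from RefSeq (GRCm38.p6, the C57BL/6J reference, not the FVB/NJ strain of these mice). They were found for 7 of the 10 genes, in 10 windows. *Trp53inp1*, *Perp* and *Zmat3* had no window and were not searched. The windows were searched for the p53 half-site consensus, which reads the same on both strands. It occurred in 3 of the 10 windows, those of *Mdm2*, *Ccng1* and the shorter transcript of *Sesn1*, and in 8.36% of all 32851 windows. The half-site is in capitals below, and the stretches of *Mdm2* and *Ccng1* lie outside the annotated genes, while that of *Sesn1* lies within the span of its longer transcript.
*Mdm2*, chr10:117710925-117710954, minus strand: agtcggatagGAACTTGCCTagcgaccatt
*Ccng1*, chr11:40755310-40755536, minus strand: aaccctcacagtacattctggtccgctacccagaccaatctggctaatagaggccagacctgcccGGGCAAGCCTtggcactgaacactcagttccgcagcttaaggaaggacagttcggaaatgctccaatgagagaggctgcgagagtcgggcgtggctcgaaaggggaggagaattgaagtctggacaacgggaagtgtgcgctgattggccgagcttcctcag
*Sesn1*, chr10:41887256-41887285, plus strand: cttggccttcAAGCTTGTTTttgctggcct
The matches begin 186 bases before the start site in *Mdm2*, 185 in *Ccng1* and 173 in *Sesn1*. A CCAAT box (CCAAT or, on the other strand, ATTGG) was in 6 of the 10 windows, from 5 of the 7 genes, and in 37.4% of all windows. A match of letters is a description and not a bound site. The 3 genes with a half-site match differed by 0.12, -0.89 and 0.14 on the log2 scale.

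*Trp53inp1*, a nuclear and autophagy-linked protein that promotes the apoptotic activity of p53, showed the largest change of the 9. Its log2 values were 9.26, 9.81 and 9.51 in the Sox9-GFP low arrays and 7.11, 7.63 and 6.40 in the Sox9-GFP high arrays. The sorts were far apart, with every Sox9-GFP high array at least 2.15 below the low array of the same number. The means were 9.53 ± 0.28 and 7.05 ± 0.62 (SD, n = 3 each), a 5.58-fold lower level in Sox9-GFP high cells (log2 difference -2.48, standard error 0.29, adjusted p = 0.00128 from limma). By absolute difference it ranked 97 of the 22206 probe sets. Leaving out each array, or each array number from both sorts, gave 9 limma fits on fewer arrays (reduced fits), and it passed in all 9, at 4.45-fold to 6.84-fold.

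*Perp*, a membrane protein of desmosomes and an apoptosis effector of p53 that p63 also controls in epidermis, moved the other way. On the log2 scale it read 11.00, 10.69 and 10.76 in Sox9-GFP low and 11.86, 12.22 and 12.12 in Sox9-GFP high cells. The spread within a sort was small, 0.16 and 0.19 (SD, n = 3 each), beside a difference of 1.25 (standard error 0.18), a 2.39-fold rise (adjusted p = 0.00329 from limma). It passed in 8 of the 9 reduced fits and missed the threshold without replicate 3 of both sorts (adjusted p = 0.0598).

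*Phlda3* encodes a small lipid-binding protein that competes with the kinase AKT for the membrane and so restrains AKT. The arrays gave log2 values of 4.77, 4.13 and 4.84 in Sox9-GFP low and 6.12, 5.46 and 5.77 in Sox9-GFP high cells. It rose 2.30-fold (log2 difference 1.20, standard error 0.24, adjusted p = 0.0163 from limma), by 1.36, 1.32 and 0.93 in arrays 1, 2 and 3. Its Sox9-GFP low mean, 4.58, lay below the array medians. It passed in 5 of the 9 reduced fits. Leaving out Sox9-GFP high replicate 1 or 3 ended the call (adjusted p = 0.0579 and 0.0542), as did leaving out replicate 1 or 3 of both sorts (0.0822 and 0.0889). Its 250 bases before the start site, in the same RefSeq build, hold no half-site match and are shown for comparison with the *Ccng1* stretch. The genes differed in opposite directions, *Ccng1* passing only with the block. A link between half-site matches and direction was not tested.
*Phlda3*, chr1:135765835-135766084, plus strand: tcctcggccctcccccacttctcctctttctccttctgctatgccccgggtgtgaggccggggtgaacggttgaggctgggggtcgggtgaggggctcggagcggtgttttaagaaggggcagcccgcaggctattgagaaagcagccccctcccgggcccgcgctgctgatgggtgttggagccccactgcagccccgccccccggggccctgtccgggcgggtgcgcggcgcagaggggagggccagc

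*Zmat3*, a zinc finger protein that binds RNA and acts on splicing and transcript stability, was dim in both sorts. Its log2 values were 4.26, 4.96 and 5.01 in Sox9-GFP low and 4.93, 4.65 and 4.68 in Sox9-GFP high cells, with both means below the array medians. The difference was 0.01 (95% interval -0.50 to 0.52, adjusted p = 0.987 from limma).

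The sestrins hold back the growth kinase complex mTORC1, which SESN1 and SESN2 do by binding GATOR2. *Sesn1* had log2 values of 6.11, 6.25 and 6.17 in Sox9-GFP low and 6.09, 6.81 and 6.06 in Sox9-GFP high cells, so that array 2 of the Sox9-GFP high cells alone lay above the rest. The difference was 0.14 (95% interval -0.35 to 0.64, adjusted p = 0.799 from limma). *Sesn2*, which ATF4 induces as well as p53, had log2 values of 9.52, 10.03 and 9.97 in Sox9-GFP low and 9.75, 9.87 and 9.87 in Sox9-GFP high cells. Its difference was -0.01 (95% interval -0.43 to 0.41, adjusted p = 0.983 from limma). A rise of 1 on the log2 scale lay outside the intervals of all 5 genes that did not pass in either fit.

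**Figure D2:**
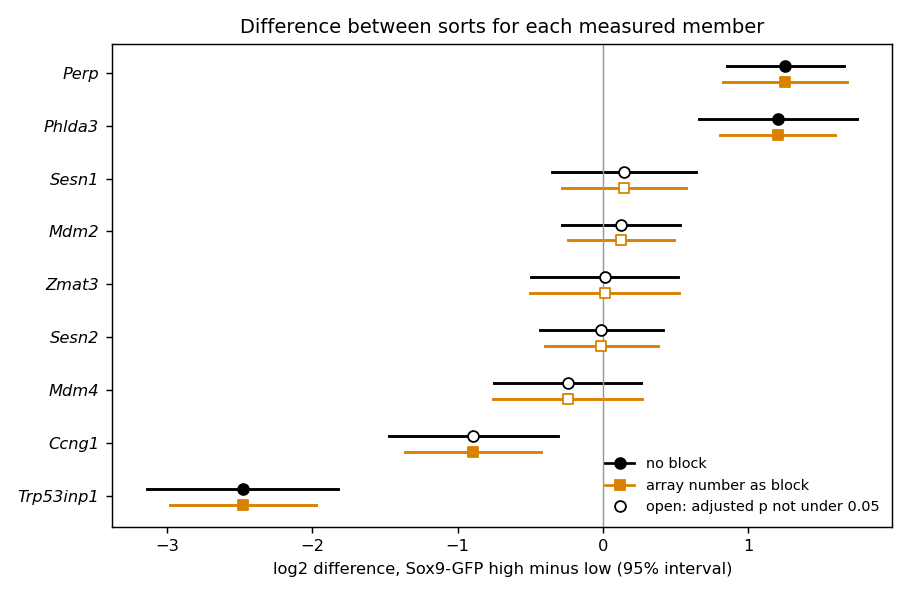
Log2 difference (high mean less low mean) of the 9 measured genes with 95% intervals from limma, without a block (black circles) and with the array number as a block (orange squares); open symbols did not pass. *Perp* and *Phlda3* lie above 0 and *Trp53inp1* below it in both fits, *Ccng1* passes only with the block, and the other 5 intervals include 0.

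Beyond these genes, 28 of 31 other p53 targets were measured. Among them 1 was higher and 27 did not pass (in limma 11 had an unadjusted p under 0.05, 8 of them higher, and 6 by the methods' t-test), beside 4.0% higher and 3.20% lower of all probe sets. With the replicate block 4 were higher and 2 were lower, beside 6.32% and 4.99%. Their median log2 difference was 0.12, beside 0.01 over all probe sets. The percentages of all probe sets are of adjusted calls, and are no background for unadjusted counts. No such background is given for the unadjusted counts in limma, here or in the other lists, so they show no shift by themselves. By the methods' test 3765 of all 22206 probe sets had an unadjusted p under 0.05. The gene called without the block was *Pmaip1*, which encodes the BH3-only apoptosis protein NOXA. On the log2 scale it read 8.36, 7.14 and 8.13 in Sox9-GFP low and 9.73, 9.53 and 10.30 in Sox9-GFP high cells, with no overlap. It rose 3.93-fold (log2 difference 1.97, standard error 0.32, adjusted p = 0.00563 from limma) and kept its call in 8 of the 9 reduced fits, not without replicate 3 of both sorts (adjusted p = 0.0540).

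None of the 9 measured arrest targets passed in limma without the block (5 at an unadjusted p under 0.05, and 1 by the methods' t-test). With the block *Btg2*, an antiproliferative factor, and *Plk2*, a stress-induced kinase, were higher, with differences of 0.72 and 0.67 (adjusted p = 0.0337 and 0.0360, and 0.143 and 0.103 without it). *Ccng2*, the relative of *Ccng1*, and *Sfn*, encoding 14-3-3 sigma, were lower with the block, at -1.06 and -0.77 (adjusted p = 0.0201 and 0.0254, and 0.119 and 0.106 without it). Without the block *Plk2* passed under a trended and robust prior (adjusted p = 0.0448). Among the reduced fits *Btg2* passed only when Sox9-GFP low replicate 1 was left out (adjusted p = 0.0317) and *Ccng2* only without Sox9-GFP low replicate 3 (adjusted p = 0.0190). *Cdkn1a*, which encodes the cell cycle inhibitor p21, had log2 values of 15.77, 14.97 and 15.94 in Sox9-GFP low and 16.35, 15.88 and 16.24 in Sox9-GFP high cells. Its sorts overlapped, and its difference of 0.60 did not pass (adjusted p = 0.229 without and 0.0696 with the block). Of the 10 measured repair and metabolism targets none passed in limma without the block (4 at an unadjusted p under 0.05, and 3 by the methods' t-test), and with it *Xpc*, a DNA damage sensor, was higher (difference 0.66, adjusted p = 0.0440, and 0.0731 without it), as it was without the block when Sox9-GFP high replicate 2 was left out (adjusted p = 0.0458).

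**Figure D3:**
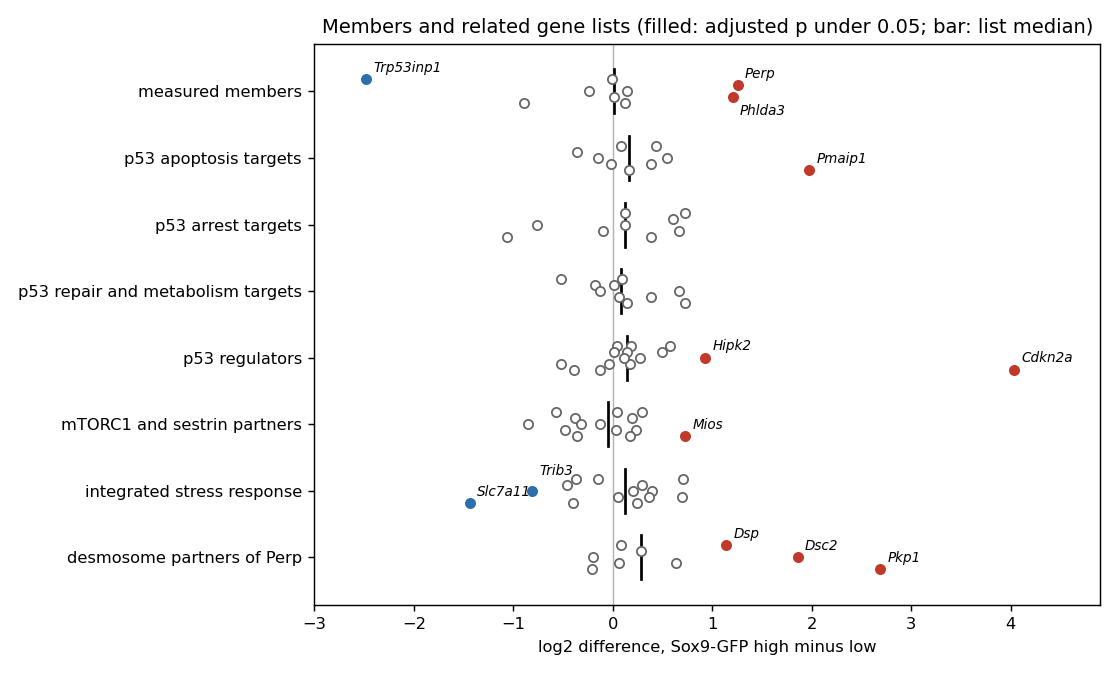
Log2 difference (high mean less low mean) of the measured genes and of the genes in 7 related lists, 1 point per gene, filled and named where limma without a block passed (red higher, blue lower), with a bar at each list's median. Most p53 targets and regulators lie within 1 of 0, *Cdkn2a* and the desmosome gene *Pkp1* lie farthest above 0, and *Trp53inp1* lies farthest below it.

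Of 15 measured members of the p53 family and its regulators, 2 were higher and none was lower (5 at an unadjusted p under 0.05 in limma and 4 by the methods' t-test), beside 4.0% and 3.20% of all probe sets. *Cdkn2a*, whose ARF product binds MDM2, had log2 values of 7.95, 4.65 and 5.61 in Sox9-GFP low and 10.70, 10.65 and 8.95 in Sox9-GFP high cells. It rose 16.3-fold (adjusted p = 0.0102 from limma) and passed in 8 of the 9 reduced fits, but not without replicate 2 of both sorts (adjusted p = 0.0864). Its fold ran from 8.22 to 31.3 over the 9. These values are for the gene, and its ARF transcript was not told apart from others. *Hipk2*, a kinase that phosphorylates p53, rose 1.90-fold (adjusted p = 0.0318), but passed in 1 of the 9 reduced fits, the one without Sox9-GFP high replicate 2 (adjusted p 0.0435 to 0.156 over the 9). *Ppm1d*, a phosphatase that p53 induces and that dampens it, had a difference of 0.04 (adjusted p = 0.945), and *Trp63*, encoding p63, of 0.11 (standard error 0.46, adjusted p = 0.936). *Trp53* itself was not analysed here.

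*Perp* was set beside 9 desmosome genes. In this list 3 were higher and 6 did not pass (3 at an unadjusted p under 0.05 in limma and 3 by the methods' t-test), beside 4.0% of all probe sets that were higher. The plakophilin *Pkp1* rose 6.44-fold (adjusted p = 0.0111), the desmocollin *Dsc2* 3.63-fold (adjusted p = 0.00968) and desmoplakin, *Dsp*, 2.21-fold (adjusted p = 0.0363). In each of them all Sox9-GFP high arrays lay above all Sox9-GFP low arrays, as in 14.1% of all probe sets. *Pkp1* and *Dsc2* kept their calls in all 6 fits that left out a single array and lost them without replicate 3 of both sorts (adjusted p = 0.0841 and 0.0744), and the fold of *Pkp1* ran from 4.09 to 9.39 over the 9 fits. *Dsp* kept its call in 2 of the 9, those without Sox9-GFP high replicate 2 or Sox9-GFP low replicate 3. *Dsg3*, a desmoglein of basal layers, differed by 0.64 and did not pass (adjusted p = 0.591).

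*Sesn1* and *Sesn2* were set beside genes of mTORC1 control and of the stress pathway that also induces *Sesn2*. Of 14 genes of the mTORC1 inputs 1 was higher, *Mios*, a GATOR2 subunit (1.65-fold, adjusted p = 0.0351), and none was lower in limma (3 at an unadjusted p under 0.05, and 3 by the methods' t-test), beside 4.0% and 3.20% of all probe sets. With the block *Deptor*, an mTOR inhibitor, was also lower (difference -0.85, adjusted p = 0.0286, and 0.0692 without it). *Mios* passed in 1 of the 9 reduced fits, the one without Sox9-GFP low replicate 3, and missed the threshold on all 6 arrays under a trended and robust prior (adjusted p = 0.0633). Of 14 genes of the integrated stress response none was higher and 2 were lower in limma (4 at an unadjusted p under 0.05, and 3 by the methods' t-test), beside the same shares. These were *Slc7a11*, the cystine transporter, 2.71-fold (adjusted p = 0.00995), and *Trib3*, a pseudokinase induced by ATF4, 1.76-fold (adjusted p = 0.0181). *Slc7a11* kept its call in all 6 fits that left out a single array and lost it without replicate 1 or 3 of both sorts. *Trib3* kept its call in 2 of the 9, those without Sox9-GFP high replicate 1 or Sox9-GFP low replicate 2. *Phgdh*, of serine synthesis, and *Ddit3*, encoding CHOP, had differences of 0.71 and 0.70 and did not pass.

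Markers of cell types were set beside these genes, and few of them passed in limma. Over all probe sets 4.0% were higher and 3.20% lower. Of 8 luminal markers 1 was lower, *Krt19* (3.14-fold, adjusted p = 0.00130 from limma). The log2 of the summed level of the 8 was 19.06 to 19.39 in Sox9-GFP high and 18.98 to 19.28 in Sox9-GFP low cells. *Krt18* and *Krt8* were the brightest of the 8, and this sum hardly reflects *Krt19*. *Krt7* differed by 0.97 and passed only with the block (adjusted p = 0.0708 without and 0.00806 with it). In bulk RNA a smaller share of a cell type and less RNA per cell cannot be told apart. Of 9 basal markers 1 was higher, *Krt17*, and the log2 of their summed level was 15.09 to 15.83 in Sox9-GFP high and 14.35 to 14.92 in Sox9-GFP low cells, beside the higher *Perp*, *Phlda3* and desmosome genes. *Krt17* and *Krt14* carried this sum, with differences of 2.09 and 0.55, while the median over the 9 was 0.11. *Mylk* differed by 2.53 and passed only with the block (adjusted p = 0.0604 without and 0.00263 with it). *Acta2*, *Oxtr* and *Krt5* had differences of -0.64, -0.27 and -0.13 and did not pass. The basal markers *Krt5*, *Myh11* and *Oxtr* had means under the medians of the arrays in each sort. Of 6 fibroblast markers 1 was lower, *Dcn*, and the summed level was 9.29 to 10.14 in Sox9-GFP high and 11.48 to 11.98 in Sox9-GFP low cells, beside the lower *Trp53inp1*. *Dcn* alone carried this sum, with means of 9.44 and 11.66, while the median difference over the 6 was 0.05. *Lum*, *Col1a1*, *Col1a2* and *Col3a1* had differences of 0.12, -0.01, 0.32 and 0.14 and did not pass, and *Dpt*, at -0.67, passed only with the block (adjusted p = 0.133 without and 0.0354 with it). Means of the fibroblast markers *Col1a2*, *Col3a1* and *Dpt* were below those medians in each sort. Of 5 adipocyte markers none passed in limma (1 at an unadjusted p under 0.05, and 1 by the methods' t-test), with summed levels of 10.22 to 12.13 and 11.92 to 13.21, and *Fabp4* was the one of them above the medians. The part of these cells in the results was not tested.

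**Figure D4:**
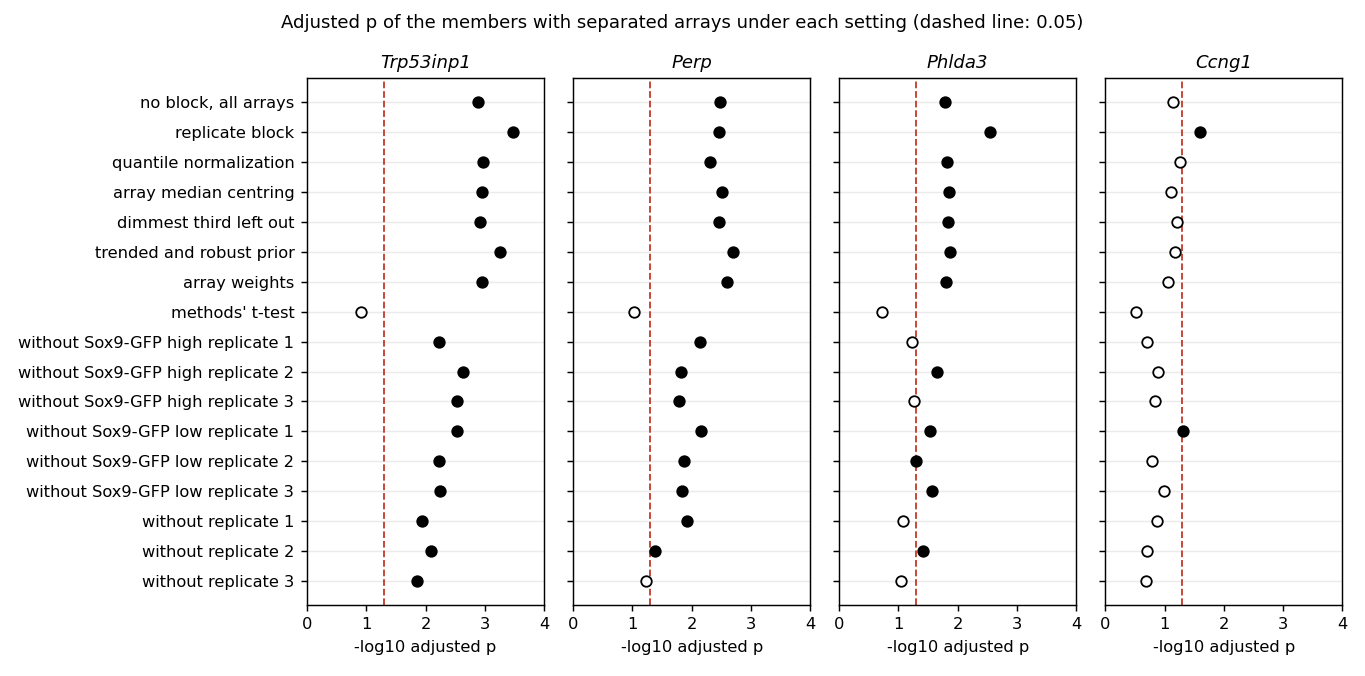
Adjusted p (as -log10) of the 4 genes whose arrays did not overlap, under each processing setting drawn; filled points are under 0.05, the dashed line. *Trp53inp1* passes in every setting drawn but the methods' t-test, *Perp* misses it there and without replicate 3 of both sorts, *Phlda3* misses it in 5 settings and *Ccng1* passes in 2.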

How the data were processed

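Biotin-labelled total RNA of 6 samples was hybridised to one-colour arrays, and the deposited values are log2 expression levels, 1 for every probe set on every array. The method of normalization was not given in the sources used here, and the number of arrays limits the precision. Gene names came from the platform's annotation, with 19572 of 22206 probe sets named. Where a gene had several probe sets, the brightest on average stood for it. All probe sets were fitted in R 4.3.3 with limma 3.58.1 (lmFit, eBayes, two-sided, no block). P-values were Benjamini-Hochberg adjusted over all of them, and 0.05 was the threshold. This fit is unpaired, like the Student's t-test that is the paper's general rule for its statistics. The paper compared these transcriptomes by gene set enrichment analysis, and the methods' t-test here is that rule run on each probe set. Folds are antilogs of log2 differences. The fit was tested on simulated data, in 20 runs with 200 changed probe sets each. It recovered 37.15% of log2 differences of 1 and 88.05% of those of 2, and 4.07% of its calls were false. The simulated arrays were drawn independently, with fewer changed probe sets than the 1599 called here, so these rates need not hold for the data. By these rates a gene that did not pass can still differ by 1 on the log2 scale. Among the 9 measured genes, those that passed in neither fit had intervals that exclude a difference of 1 in either direction. Arrays of equal number deviated together from their sort means (r = 0.236, 0.232 and 0.218). A fit that pairs these numbers, the block, was therefore run as an alternative. Its basis comes from the values and not from the labels. Calls are from the fit without the block unless the block is named. Blocked values are given where they change a call. The genes and lists were chosen with earlier results of these data known. All 9 measured genes are named, and of each related list up to 4 with the largest difference, called ones first. Of the genes within this rule *Atr*, *Rpl11*, *Wdr59*, *Sesn3* and *Kif11* are not described in the results. *Cdkn1a*, *Plk2*, *Xpc*, *Ppm1d*, *Trp63*, *Birc5*, *Ccnb2* and the cell type markers other than *Krt8* and *Krt18* fall outside it. They were named after their values were seen. Alternatives were the block, quantile normalization, median centring, array weights, a prior that was trended and robust, a filter on the dimmest 33% of probe sets, each array or number left out, the methods' t-test and the mean over probe sets. Sequences were read from a RefSeq table in Python 3.11.15.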

Additional observations from a re-analysis of the deposited data

How the results depend on the processing

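Of the genes followed, 3 of 9 were called in limma and 4 with the replicate block. The block called 2512 probe sets in all against 1599 without it, and 6 other p53 targets against 1, and 2 p53 regulators as before. Among the 9 genes it changed no call but that of *Ccng1*, and it called 10 mitotic genes against 8, 2 basal and 2 fibroblast markers against 1 and 1, and 2 luminal markers against 1. The other list genes whose call it changed were *Btg2*, *Plk2*, *Xpc*, *Ccng2*, *Sfn* and *Deptor*. A trended and robust prior called 3 of the 28 other p53 targets, 2 higher and 1 lower. Of the genes just named it called only *Plk2*. The methods' t-test after Benjamini-Hochberg adjustment called 3 probe sets in all (3765 at an unadjusted p under 0.05), and 0 of the 9 genes (3 unadjusted), 0 other p53 targets and 0 p53 regulators. With arrays left out, 547 to 1231 probe sets, 1 to 4 of the 9 genes, 0 to 2 other targets and 0 to 2 regulators were called, the fewest of the 9 genes without replicate 3 of both sorts. These fits have fewer arrays and no block. Quantile normalization, centring, the filter and array weights kept the count at 3. *Trp53inp1*, *Perp*, *Phlda3* and *Ccng1* kept their direction in every alternative. Differences near 0 changed sign: *Zmat3* was -0.0027 with quantile normalization and -0.32 to 0.18 with arrays left out, *Sesn2* was 0.019 with array weights and -0.17 to 0.084 with arrays left out, and *Sesn1* was -0.099 to 0.27 with arrays left out. Each gene had 1 probe set, so averaging probe sets moved no difference. No background level was used here, so the precision of dim genes such as *Zmat3* and *Phlda3* is not known.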

Other observations

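Mitotic genes, which p53 is known to hold down indirectly, were higher in Sox9-GFP high cells for 8 of 14 measured and lower for none in limma without the block (10 at an unadjusted p under 0.05, all higher, and 9 by the methods' t-test), beside 4.0% higher of all probe sets, with a median log2 difference of 0.86. The highest were *Top2a*, the topoisomerase of dividing cells (3.21-fold, adjusted p = 9.94e-04), *Cdc20*, which starts anaphase (2.69-fold), and the mitotic kinase *Plk1* (2.54-fold). *Birc5*, which encodes survivin, and *Ccnb2*, a mitotic cyclin, differed by 0.87 and 0.67 and passed only with the block (adjusted p = 0.0243 and 0.0404, and 0.0520 and 0.154 without it).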
